A study of Mus musculus with 2 samples.

Results

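Messenger RNA levels of 7 liver enzymes of cholesterol and fatty acid synthesis were compared between mice on parenteral nutrition (PN, feeding through a vein) and saline-infused mice. The 7 genes are Mvd, Fdps, Sqle and Hsd17b7 of the sterol pathway and Fasn, Elovl6 and Fads2 of the fatty acid pathway. They were chosen by gene symbol as target genes of sterol regulatory element binding proteins (SREBPs), and each was found on exactly 1 row that the platform annotation assigned to that symbol alone, so the set held 7 of the 5082 deposited rows and 7 of the 1750 named genes. The choice was made with earlier results of these data known.

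Both groups were wild-type C57BL/6J mice, a common inbred strain, of 6 to 10 weeks, kept on a 12-hour light cycle, and the labels used here give no sex. The PN group had a jugular catheter placed on day 1, took saline through it from day 2, and on day 3 changed to PN and lost access to food. The saline group had the same surgery and infusion line, stayed on saline and kept its food. Livers were taken on day 11, after 8 days, and RNA of 3 mice a group was pooled and hybridised to 1 array. The PN array was taken as such from its mouse group and title, while its source label also carries the word control. Route of feeding, removal of food and the nutrients taken in thus differed together and cannot be told apart here. With 1 array a group there was no replicate check, no test was possible, and every value describes these 2 pools only. Values are RMA levels (robust multi-array average, log2 scale). The authors had kept only rows that differed by at least 1.5-fold, which is 0.58 on the log2 scale, so all genes with a value had to differ and a gene with no row is not thereby unchanged.

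Cholesterol is built from acetyl-CoA through mevalonate and squalene, and fatty acids are built from the same precursor by fatty acid synthase and then lengthened and desaturated in the endoplasmic reticulum. SREBPs are membrane-bound transcription factors that are cut free when sterols are low or insulin is high. SREBP2 acts mainly on sterol genes and SREBP1c mainly on fatty acid genes, and liver is a main site of both pathways in mice.

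All 7 genes were higher in the PN pool, by 1.66-fold to 2.01-fold, and none was lower. The median difference, PN minus saline, was 0.83 on the log2 scale (1.78-fold). Among all deposited rows, 47.3% were higher in the PN pool by at least 1.5-fold. Of all named genes 50.1% were higher by that amount and 49.8% lower. Sqle alone of the 7 reached 2-fold, against 7.6% of named genes that were higher by at least 2-fold and 7.2% that were lower. These shares are over all named genes, while the 7 are all higher. Of the 878 named genes higher in the PN pool, 133 reached 2-fold. The 4 sterol genes had a median of 0.80 (range 0.75 to 1.01) and the 3 fatty acid genes a median of 0.86 (range 0.73 to 0.96), so the ranges of the sterol and the fatty acid arm overlapped. The distance between the smallest and the largest of the 7 differences was 0.28 on the log2 scale. The 878 named genes that were higher in the PN pool had a median difference of 0.73 and reached 4.10. So large a set spans more than 7 genes in any case, so the distance of 0.28 is no trait of the 7.

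Mvd encodes mevalonate diphosphate decarboxylase, which makes isopentenyl diphosphate, the building block of all later sterol intermediates. Its level was 7.75 in the PN pool, against 6.92 in the saline pool, a difference of 0.83 (1.78-fold). Fdps encodes farnesyl diphosphate synthase, which joins these units into the farnesyl chain used for sterols and for protein prenylation. Its level was 10.12 in the PN pool, against 9.35 in the saline pool, a difference of 0.77 (1.71-fold). Both early enzymes therefore differed by a nearly equal amount.

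Sqle encodes squalene epoxidase, an oxygen-dependent and rate-controlling step after the pathway has committed to sterols. Its level was 9.19 in the PN pool, against 8.18 in the saline pool, and this difference of 1.01 (2.01-fold) was the largest of the 7. Among the 878 named genes higher in the PN pool, 14.5% had a larger difference than Sqle. Hsd17b7 encodes the 3-ketosteroid reductase that acts in removing the methyl groups at carbon 4 of the sterol ring, and it can also reduce estrone to estradiol. Its level was 8.03 in the PN pool, against 7.27 in the saline pool, a difference of 0.75 (1.68-fold). This was the smallest difference among the 4 sterol genes.

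Fasn encodes fatty acid synthase, the multidomain enzyme that makes palmitate. Its level was 8.70 in the PN pool, against 7.74 in the saline pool, a difference of 0.96 (1.95-fold), second to Sqle. Elovl6 encodes the elongase that turns palmitate into stearate. Its level was 7.88 in the PN pool, against 7.15 in the saline pool, a difference of 0.73 (1.66-fold), the smallest of the 7 and 0.14 above the cutoff of the table. Of the named genes higher in the PN pool, 50.2% had a larger difference than Elovl6. Fads2 encodes the delta-6 desaturase that starts the conversion of dietary linoleic and alpha-linolenic acid into arachidonic acid and long-chain omega-3 acids. Its level was 11.10 in the PN pool, against 10.24 in the saline pool, a difference of 0.86 (1.82-fold).

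**Figure D1:**
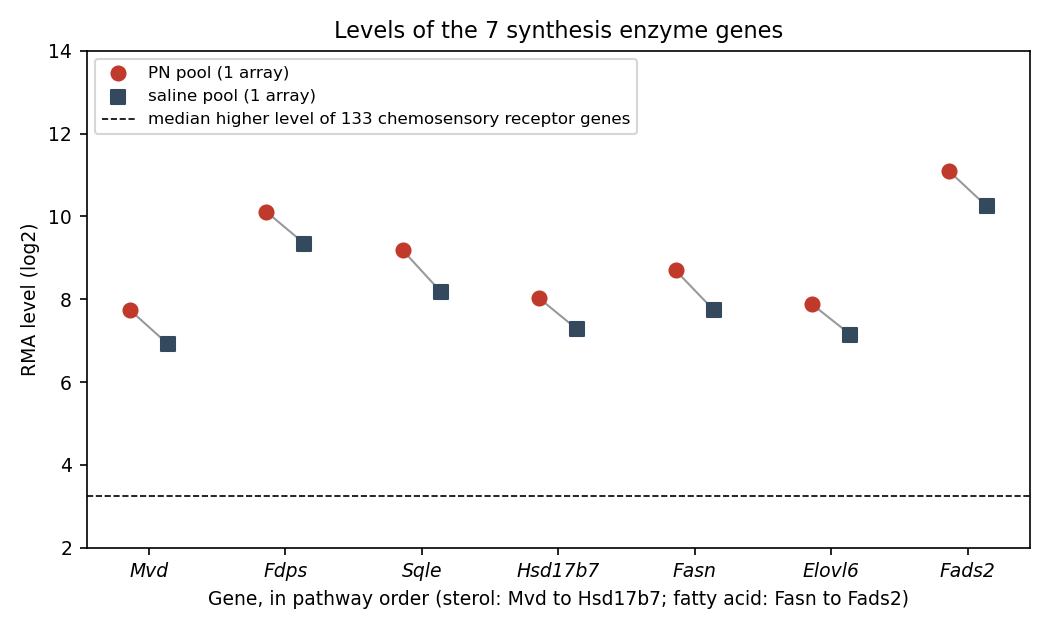
RMA level (log2, y axis) of each of the 7 genes in the PN pool (red circles) and the saline pool (blue squares), 1 array each, with no error bars because there are no replicates. Every PN value lies above its saline value, and all 14 values lie above the dashed line at 3.26, the median higher level of 133 chemosensory receptor genes.

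All 14 levels lay well above 3.26, the median higher level of 133 chemosensory receptor genes, which liver is not known to use and which served as a background level. The value closest to it was the saline level of Mvd, 3.66 log2 units above. Levels of different genes were not ranked, since probe sets differ in how strongly they respond. To set dim probe sets aside, the 7 genes were also read against brighter ones: 154 named genes had both levels at or above 6.92, the lowest level of the 7 genes, and 50.6% of these were higher in the PN pool by at least 1.5-fold and 16.2% by at least 2-fold. The 78 higher genes among them, which include the 7 enzymes, had a median difference of 0.80 and reached 2.70, against a median of 0.83 for the 7 enzymes.

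**Figure D2:**
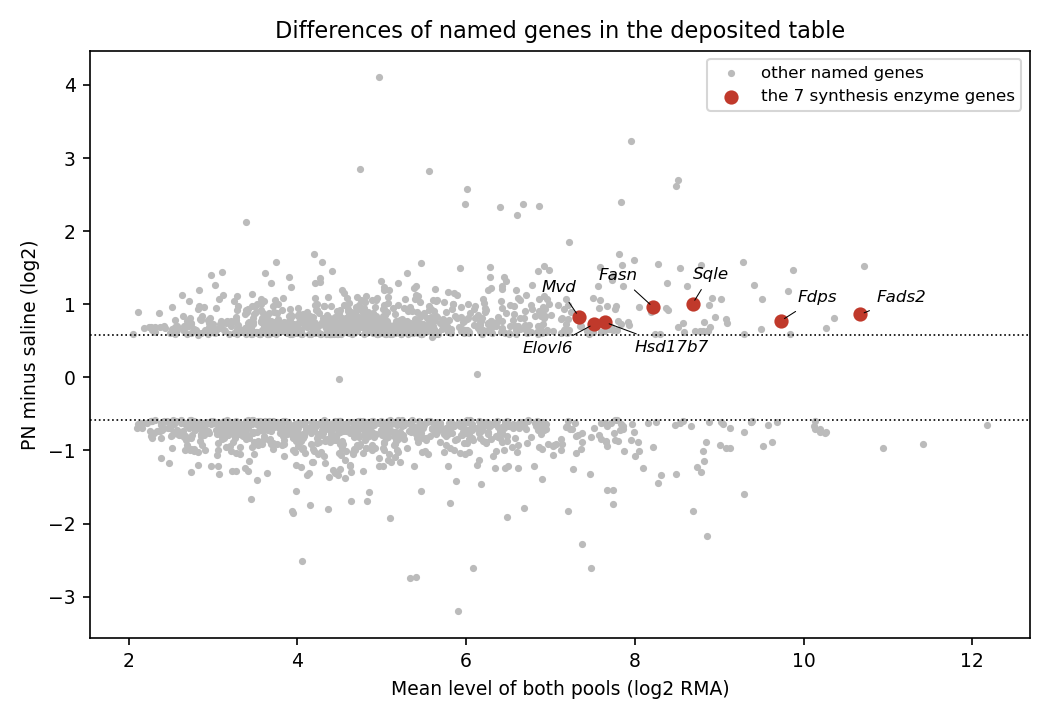
PN minus saline (log2, y axis) against the mean level of both pools (log2, x axis) for each named gene, with the 7 enzyme genes in red and the 1.5-fold cutoff dotted. The 7 points lie from 0.73 to 1.01, and other named genes run from -3.20 to 4.10. A few higher genes span less than all named genes in any case, so the narrower range is no trait of the 7. The empty strip in the middle is the authors' cutoff (the few points inside it average rows of opposite direction).

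Genes with the most similar pair of levels were found by Euclidean distance over the 2 arrays, which is a weak measure of likeness, since it sets levels of different probe sets side by side and gives larger distances where few rows are as bright. The nearest gene to Mvd was Rcan1, a calcineurin regulator, at a distance of 0.04, with a difference of 0.82. Taf1d was nearest to Hsd17b7, at 0.04 and with a difference of 0.71. Fasn lay nearest to Slco1a4, an organic anion uptake transporter, at 0.05 and with a difference of 0.90. Acnat2 was nearest to Elovl6, at 0.08 and with a difference of 0.62. For the other 3 genes the distances were larger: Sqle was 0.19 from Trp53inp1, Fdps 0.20 from Slc25a47 and Fads2 0.45 from Fabp2, the intestinal-type fatty acid binding protein, whose differences were 1.25, 0.59 and 0.81.

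Around these 7 genes, the rest of the sterol pathway was largely without values. Of 23 listed genes of sterol synthesis 6 had a named row. The PN pool was higher for all 6, with the middle difference at 0.77 (median, log2; 1.70-fold). Of these 6 genes, 4 are the sterol enzymes already given, chosen with earlier results of these data known, and the others were Fdft1 and Lbr. Among all named genes 50.1% were higher by at least 1.5-fold and 49.8% lower. Fdft1 encodes squalene synthase, the step between Fdps and Sqle, and had 9.82 in the PN pool, against 9.16 in the saline pool, a difference of 0.66 (1.58-fold). Lbr encodes the lamin B receptor, a nuclear membrane protein that is also a sterol C14 reductase, and had 6.55 in the PN pool, against 5.79 in the saline pool, a difference of 0.76 (1.69-fold). The 3 successive enzymes from farnesyl diphosphate to squalene epoxide, Fdps, Fdft1 and Sqle, thus each had a value, and each was higher under PN. Fdps and Sqle are among the 7 genes chosen with earlier results known, so only Fdft1 adds a value here. The other 17 genes had no named row, among them Hmgcs1, which acts at the entry to the mevalonate pathway, and Lss, Cyp51 and Dhcr7 of the later steps.

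On the fatty acid side the 3 lists of synthesis, elongation and desaturation held 31 genes, of which 4 had a named row, 3 higher and 1 lower. The 3 higher genes are Fasn, Elovl6 and Fads2, chosen with earlier results of these data known. The only other gene with a value, Elovl3, was lower. Among all named genes 50.1% were higher by at least 1.5-fold and 49.8% lower. Fasn was the only 1 of 10 synthesis genes with a value. Acly, Acaca and Me1, which supply acetyl-CoA, malonyl-CoA and NADPH to it, had none, and neither had Acacb. Of 13 elongation genes Elovl6 and Elovl3 had a value, and they went in opposite directions. Elovl3, an elongase of longer saturated and monounsaturated chains, had 8.50 in the PN pool, against 10.09 in the saline pool, a difference of -1.59 (3.01-fold lower). The authors' selection thus holds both elongases, with Elovl6 higher and Elovl3 lower by the larger amount. Of 8 desaturase genes Fads2 alone had a value. Fads1 and Fads3, its neighbours on chromosome 19, had no named row, nor had Scd1, the stearoyl-CoA desaturase of liver.

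**Figure D3:**
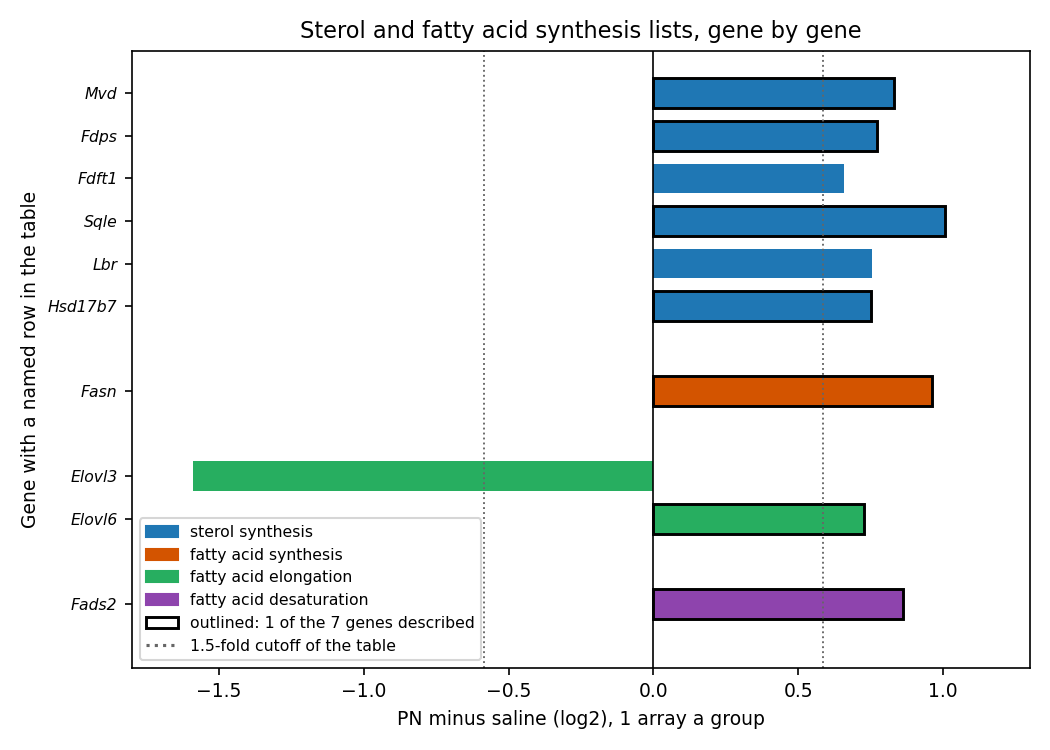
PN minus saline (log2, x axis) for the 10 genes with a named row, of the 54 in the sterol synthesis, fatty acid synthesis, elongation and desaturation lists, in list order (y axis), 1 array a group, with the 7 enzyme genes outlined. Of the 10 bars 9 point to the right (higher in the PN pool), and that of Elovl3 points to the left at -1.59. The 7 outlined genes all point to the right and were chosen with earlier results of these data known. Of the genes not outlined, Fdft1 and Lbr point to the right and Elovl3 to the left. Among all named genes 50.1% were higher by at least 1.5-fold and 49.8% lower.

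SREBPs themselves and their regulators were nearly absent from the table. Of 14 genes of SREBP processing and feedback, among them Srebf1, Srebf2, Scap and Insig1, only Mbtps2 had a named row. Mbtps2 encodes the site-2 protease that makes the final cut releasing SREBPs from the membrane, and it had 5.08 in the PN pool, against 5.80 in the saline pool, a difference of -0.72 (1.64-fold lower). Of 15 other SREBP targets, Pnpla3 alone had a named row. Pnpla3, a lipid droplet lipase homologue, had 5.01 in the PN pool, against 4.31 in the saline pool, a difference of 0.71 (1.63-fold).

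Gene groups that use or oppose the products of these enzymes had few values too. Their counts stand beside 50.1% of all named genes that were higher by at least 1.5-fold and 49.8% that were lower. Of 13 genes of triglyceride and cholesteryl ester synthesis 2 had a value, both higher: Lpin2, a phosphatidic acid phosphatase measured on a pair of rows at 0.80 and 1.36, and Mogat2, a monoacylglycerol acyltransferase, at 0.69. Of 13 genes of the oxysterol receptor LXR and the carbohydrate-responsive factor ChREBP 3 had a value and were higher, led by the phospholipid transfer protein gene Pltp at 0.98 and the sterol exporter subunit gene Abcg8 at 0.69. Fatty acid oxidation and PPARA genes had 3 values among 23 listed, all higher, led by the hormone gene Fgf21 at 0.89 and the carnitine acetyltransferase gene Crat at 0.67. A row that the annotation shares between Cyp4a10, a fatty acid hydroxylase gene of that list, and Cyp4a32 was not counted among them, had 5.54 in the PN pool, against 6.999 in the saline pool, and so went the other way at -1.46 (named after its value was seen). The bile acid synthesis list, the route by which liver disposes of cholesterol, had 6 values among 16 listed, 2 higher and 4 lower. Cyp8b1 at -1.83 and Akr1c6 at -1.78 differed most. Cyp7a1 at 1.27 and Cyp39a1 at 0.64 were higher, and Cyp7b1 at -1.15 and Nr0b2 at -0.89 were lower (named after their values were seen).

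Genes of the fasting and insulin response were higher in the same pool as the synthesis enzymes. Of 14 listed 6 had a value, all higher, with a median difference of 1.36 (2.57-fold), against 0.83 for the 7 enzymes. Of all named genes 50.1% were higher by at least 1.5-fold, and the named genes higher in the PN pool had a median of 0.73. This list, too, was chosen with earlier results of these data known. The leptin receptor gene Lepr had 6.97 in the PN pool, against 4.15 in the saline pool, a difference of 2.82. Igfbp1, a growth factor binding protein that insulin represses, had 11.48 in the PN pool, against 9.95 in the saline pool, a difference of 1.53. Whether the 2 groups of genes differed from each other in response could not be tested with 1 array a group.

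Markers of other cell types had values too, and these did not all go in the same direction. For comparison, 50.1% of all named genes were higher in the PN pool by at least 1.5-fold and 49.8% lower. Of 20 macrophage markers 10 had a value. The PN pool was higher for each of the 10, by a median of 0.78, and their summed linear level was 2474 in the PN pool, against 1431 in the saline pool. Marco, Clec7a and Gpnmb led them, at 2.36, 1.56 and 1.09 (names chosen after their values were seen). For 5 of 12 lymphocyte markers a value was found, each higher under PN. Their summed linear level was 242.0 in the PN pool, against 133.5 in the saline pool. Klrb1c, Cd3e and Gzma among them had saline levels of 3.61, 3.91 and 4.03, near the background level of 3.26. Of 8 markers of adipocytes, a cell type that also makes fatty acids, Retn alone had a value and was lower, with 5.04 in the PN pool, against 5.74 in the saline pool. None of 10 endothelial markers had a named row. Of 8 cholangiocyte markers 3 had a value, 1 higher and 2 lower, and of 10 stellate cell markers Lum alone, at 0.93. The summed levels of the macrophage and the lymphocyte markers had to be higher in the PN pool, since each gene in them was higher. Such sums also add probe sets that differ in how strongly they respond. No marker is at 0 on this scale, and those without a row have no value. In such bulk RNA, more cells of a type and more RNA per cell cannot be told apart, and the part of other cell types in the 7 differences was not tested. Of 15 hepatocyte markers Cyp7a1 and Cyp8b1 had a named row, at 10.04 and 7.77 in the PN pool, against 8.77 and 9.60 in the saline pool. The other 13, albumin among them, had none.

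Promoter sequences were set beside the values because the 7 genes share SREBPs as known regulators, by which they were chosen. Their shared direction is no separate ground, since the choice was made with earlier results of these data known. The RefSeq promoter table of mouse build GRCm38.p6 matched 5 of the 7 genes, 1 window each, from 250 bases before to 50 after the annotated start. SREBPs are weak activators alone and act with the general factors NF-Y and SP1, so the motifs searched on both strands were a sterol response element form, TCACNCCAC, the NF-Y box CCAAT and the SP1 box GGGCGG. The E-box CACGTG, which SREBPs can also bind, was added after the sequences were seen. The 190 bases before the start follow for each gene, 5′ to 3′ on the gene's strand, with NF-Y, SP1 and E-box matches in capitals (ATTGG is the NF-Y box and CCGCCC the SP1 box of the opposite strand). They lie at chr8:122443423-122443612 (minus strand) for Mvd, chr1:169969206-169969395 (minus strand) for Hsd17b7, chr11:120824548-120824737 (minus strand) for Fasn, chr3:129532196-129532385 (plus strand) for Elovl6 and chr19:10101504-10101693 (minus strand) for Fads2.
Mvd: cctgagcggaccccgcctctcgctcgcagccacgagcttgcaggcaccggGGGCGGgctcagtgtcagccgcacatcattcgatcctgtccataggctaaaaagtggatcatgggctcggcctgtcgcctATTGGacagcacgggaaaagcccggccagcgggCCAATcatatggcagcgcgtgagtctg
Hsd17b7: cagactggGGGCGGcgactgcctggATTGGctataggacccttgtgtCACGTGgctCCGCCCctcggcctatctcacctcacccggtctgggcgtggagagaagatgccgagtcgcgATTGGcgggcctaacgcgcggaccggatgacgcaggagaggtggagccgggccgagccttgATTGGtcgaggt
Fasn: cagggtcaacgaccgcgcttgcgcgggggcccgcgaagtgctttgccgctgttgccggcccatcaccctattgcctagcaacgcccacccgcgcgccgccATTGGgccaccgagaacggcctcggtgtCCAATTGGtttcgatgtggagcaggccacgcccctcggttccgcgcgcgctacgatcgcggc
Elovl6: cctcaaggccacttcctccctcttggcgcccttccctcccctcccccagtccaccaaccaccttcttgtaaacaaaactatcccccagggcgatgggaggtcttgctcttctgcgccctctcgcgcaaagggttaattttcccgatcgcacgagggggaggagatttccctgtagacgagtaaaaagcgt
Fads2: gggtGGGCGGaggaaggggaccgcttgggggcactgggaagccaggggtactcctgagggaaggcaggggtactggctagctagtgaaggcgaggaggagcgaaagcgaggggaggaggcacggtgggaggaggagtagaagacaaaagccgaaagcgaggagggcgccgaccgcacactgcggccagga

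The Mvd, Hsd17b7 and Fasn promoters held NF-Y boxes, and the Elovl6 and Fads2 windows held none. In Mvd the boxes began at -60 (opposite strand) and -27, counted from -1 for the base before the start, and an SP1 box lay at -140. Hsd17b7 had 3 NF-Y boxes on the opposite strand, at -165, -73 and -12, with SP1 boxes at -227, -182 and -134 and an E-box at -143. Fasn had NF-Y boxes at -90 and -59 on the opposite strand and at -62 on its own, the last 2 overlapping in a run that reads as CCAATTGG. The SP1 box of Fads2 lay at -186, and in the Elovl6 window no motif was found. Set beside the number of NF-Y boxes, the differences were 0.96 for Fasn and 0.75 for Hsd17b7 with 3 each, 0.83 for Mvd with 2, and 0.86 for Fads2 and 0.73 for Elovl6 with none.

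Among all 32851 promoter windows of the table, 37.4% held CCAAT, 35.7% GGGCGG, 7.15% CACGTG and 1.24% TCACNCCAC. CCAAT and GGGCGG were each found in 3 of the 5 enzyme windows, CACGTG in 1 and TCACNCCAC in none. With up to 1 mismatch, a search added after the sequences were seen, the sterol form matched Hsd17b7 alone, at -117 as TCACCTCAC and at -97 on the opposite strand, and 24.2% of all windows. Over the sterol synthesis list, whether or not its genes had a value, 16 of 21 windows of 18 genes held CCAAT, 17 held GGGCGG and 1, that of Hmgcs1, held TCACNCCAC. The GC content of the 5 enzyme windows ran from 55.7% to 69.3%, against a median of 52.7% over all windows, which bears on how often GGGCGG occurs. Windows of named genes higher in the PN pool held CCAAT in 40.5% of 788, and those of genes lower in the PN pool in 40.6% of 796. GGGCGG was in 42.4% of the windows of higher genes and 37.8% of those of lower genes, CACGTG in 8.38% of the higher and 6.28% of the lower, and TCACNCCAC in 0.76% of the higher and 1.13% of the lower. A match is a description of letters, not evidence of binding.

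**Figure D4:**
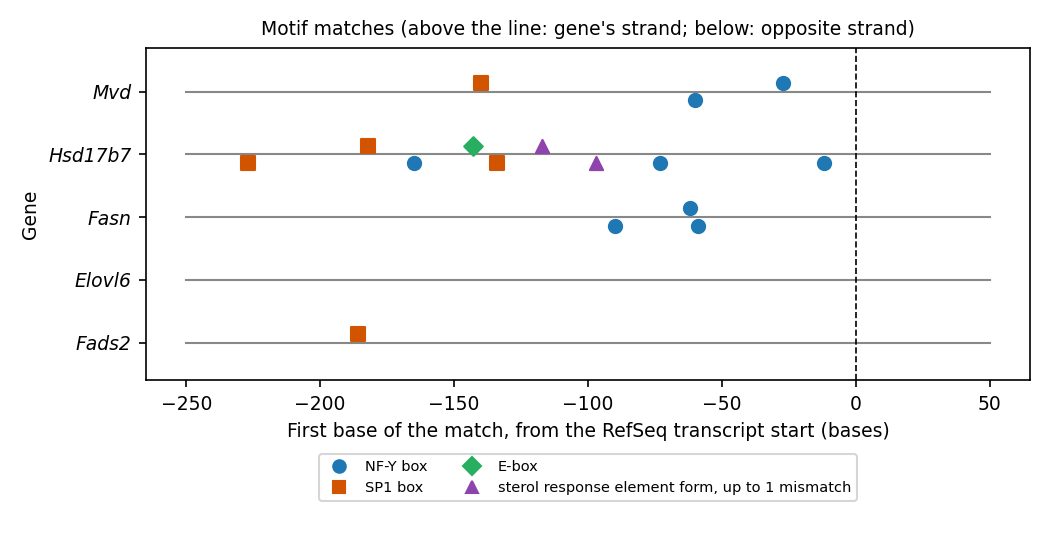
Position of the first base of each motif match (x axis, bases from the RefSeq transcript start) in the 5 promoter windows (y axis), above the line for the gene's own strand and below it for the opposite strand. NF-Y boxes (blue circles) lie between -165 and -12 in Mvd, Hsd17b7 and Fasn, and Elovl6 has no match.

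Neighbouring genes on the chromosome mostly had no value. Of the 14 protein-coding genes next to the 7 enzymes in the RefSeq annotation, 1 had a named row. This was Cyba, next to Mvd, which encodes a subunit of the phagocyte NADPH oxidase and had a difference of 0.86, against 0.83 for Mvd. No other row of the table repeated the pair of values of any of the 7 genes, and no row with several symbols carried their names.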

How the data were processed

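Liver RNA of 2 pools, PN and saline, was measured on 1 array each. The deposited values are log2 levels that the authors made with RMA in Affymetrix Expression Console 1.4.0.38, per the submitters' processing notes. Build, annotation and the set of arrays normalized jointly were not given in the sources used here. The authors kept rows past 1.5-fold, as the series' design text says, and the smallest absolute difference in the table was 0.585. Of 5082 rows, 1779 carried 1 symbol, 161 several and 3142 none. Rows with 1 symbol were averaged per gene (1750 genes, 1766 rows matched to the RefSeq gene table of GRCm38.p6). Rows with several symbols or none were left out of the comparisons. A difference is PN minus saline on the log2 scale, with no pseudocount, and a fold is 2 to the power of its size. With 1 array a group no test, error or p-value was computed, and the number of arrays limits the precision.

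The 7 enzymes, 18 gene lists (11 of pathways, 7 of cell type markers) and the motifs were chosen with earlier results of these data known. Beyond the enzymes the text names all genes with a value in the synthesis and SREBP lists and the 2 largest differences of the other pathway lists (all 6 values of the bile acid list). It also names the nearest gene to each enzyme among 1260 candidates, leaving out predicted, RIKEN, small RNA and chemosensory receptor genes. Counts and motif searches were tested on simulated data. Python 3.11.15 and pandas 2.3.3 were used.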

Additional observations from a re-analysis of the deposited data

Results flagged for a closer look

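The comparisons used no row that the annotation assigns to several genes, and 2 such rows with a gene of the synthesis or SREBP lists were higher in the PN pool. The row shared by Scd2, a stearoyl-CoA desaturase, and the microRNA gene Mir5114 had 5.47 in the PN pool, against 4.39 in the saline pool, a difference of 1.08. The row shared by Acsl3, an acyl-CoA synthetase, and Utp14b had 7.19 in the PN pool, against 6.21 in the saline pool, a difference of 0.98. Which gene of each row gave the signal was not tested.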

How the results depend on the processing

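No paired analysis was possible because each group has 1 array. Each of the 7 enzymes kept its direction under every alternative that gave it a value. Counts within 1.5 times and medians within 0.1 on the log2 scale of the reported ones were taken as unchanged, which held for 150 of 173 values. The differences of the single enzymes, which could not move further than by centring, are among these.

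With a 2-fold cutoff, Sqle alone of the 7 enzymes was left, so 1 was higher and the median was 1.01. The sterol synthesis list then also had 1 higher gene and a median of 1.01. Under that cutoff 0 genes were higher in the fatty acid synthesis, elongation, desaturation, other SREBP target, LXR and ChREBP, and oxidation lists, Elovl3 alone set the elongation median at -1.59 (-0.43 with the authors' cutoff), and the triglyceride list had 1 higher gene and a median of 1.08. The bile acid list had 1 higher gene and a median of -1.47, against -1.02 with the authors' cutoff. These changes follow from fewer genes passing.

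With rows of several symbols counted, 2 desaturases were higher, with a median of 0.97, and 2 other SREBP targets, with a median of 0.84. The same step added the row of Cyp4a10 and Cyp4a32, at -1.46, to the oxidation list, which then had 3 higher genes and 1 lower. Among genes of at least median level 0 other SREBP targets and 1 triglyceride gene, Lpin2 at 1.08, were left. With the brighter row of Lpin2 only, the triglyceride median was 0.75. Centring on the array medians, which differed by -0.02 (PN minus saline), and raising values under the background level changed no count or median beyond these limits.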
